A study of Mus musculus with 53 samples.

Results

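Apolipoprotein D (*Apod*), apolipoprotein E (*Apoe*) and clusterin (*Clu*, also called apolipoprotein J) were followed over all 53 arrays and 9 sample groups of a mouse model of synovial sarcoma, together with the cholesterol exporter *Abca1*. Members were the probe sets whose single platform gene symbol was 1 of these 4 genes, which gave 5 probe sets of 3 genes (1 of *Apod*, 1 of *Apoe* and 3 of *Clu*) among 45037 probe sets and 17097 named genes. No probe set was named *Abca1* in the annotation used, so the level of *Abca1* was not analysed here. The groups were the lines SS40 and SS64 transfected with *miR-214* or with NC (4 arrays each), 13 tumors carrying *SS18-SSX1* and *miR-214* (SS214), 12 tumors carrying *SS18-SSX1* (SS), 4 arrays of a normal tissue mix, and 4 arrays each of embryonic mesenchymal cells (eMCs) with *SS18-SSX1* and with the empty vector. eMCs were cells of the limbs of BALB/c embryos that received a retrovirus with human *SS18-SSX1*, the fusion gene of synovial sarcoma, or the same vector without it, and were harvested 48 h later. Tumors grew under the skin of nude mice, which lack T cells and keep macrophages, and the SS214 virus carried a stretch of mouse genomic DNA holding *miR-214* in place of GFP. The mix pooled organs such as skin, muscle, liver, lung and brain, and is mouse by the labels although the methods call it human, and was taken as mouse. NC is not spelled out in the sample labels and was read as the control of the transfection. Nothing in the labels says that the 4 arrays of a culture, line or mix came from separate animals or cultures, so p-values measure the spread between these arrays, which may be technical.

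Apolipoproteins carry lipids between cells. Apolipoprotein E, made in bulk by liver, macrophages and astrocytes, binds the LDL receptor family, and the cell loads it with cholesterol through the ABCA1 pump. Transcription of *Apoe* and *Abca1* is raised in macrophages by the liver X receptors (LXRs), which sense oxidized cholesterol. Apolipoprotein D is a lipocalin, a small barrel-shaped carrier of lipophilic molecules, made by fibroblasts and glia, and clusterin is a secreted chaperone that also blocks the last step of complement.

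Intensities were given on a linear scale and are reported as log2 intensity. The median over an array lay between 4.50 and 4.75 on the log2 scale, and values under a floor of 3.55 were raised to it. A difference passed where limma gave an adjusted p under 0.05, and the SE of a difference is that of limma. No 2 arrays held identical values. The 3′ over 5′ signal of *Gapdh*, a measure of RNA quality, was on the log2 scale 0.057 ± 0.14 in SS214 tumors and 0.85 ± 0.37 in SS tumors (SD), against 0.060 in the tissue mix, and lay between -0.18 and 0.010 on average in the cultures and lines. *Sox2*, a transcription factor known in synovial sarcoma, averaged 8.98 in eMCs with *SS18-SSX1* and 5.14 with the empty vector, 9.74 in SS tumors and 10.74 in SS64 NC, but 3.57 in SS40 NC, next to the floor. Skeletal muscle markers were bright in both tumor groups, and the summed intensity of 4 lung epithelial markers ran from 55.1 to 4778 in SS214 tumors and from 46.4 to 137 in SS tumors.

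*Apod* was high in SS tumors, SS214 tumors, SS64 and eMCs with *SS18-SSX1*, intermediate in the tissue mix and in eMCs with the empty vector, and near the middle of the array in SS40. In the order of group means it stood at 10.72 ± 0.92 in SS tumors (n = 12), 10.60 ± 0.023 in eMCs with *SS18-SSX1*, 10.36 ± 0.058 in SS64 NC, 9.99 ± 0.65 in SS214 tumors (n = 13), 9.13 ± 0.12 in SS64 with *miR-214*, 8.03 ± 0.066 in the mix, 7.62 ± 0.030 in eMCs with the empty vector, 4.56 ± 0.90 in SS40 with *miR-214* and 4.39 ± 0.50 in SS40 NC (SD, n = 4 where not given). Ranges of neighbours overlapped between SS tumors and eMCs with *SS18-SSX1*, between SS64 NC and SS214 tumors, between SS214 tumors and SS64 with *miR-214*, and between the 2 SS40 groups. The other neighbours in this order did not overlap.

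*Apoe* and *Clu* took another order. *Apoe* was highest in the tissue mix at 11.98 ± 0.068, followed by SS tumors at 11.18 ± 0.37 and SS214 tumors at 11.13 ± 0.30, then eMCs with *SS18-SSX1* at 8.75 ± 0.069 and with the empty vector at 7.22 ± 0.079. All 4 groups of lines came last, between 4.19 ± 0.11 in SS40 NC and 4.51 ± 0.24 in SS40 with *miR-214*. Of the neighbours, both tumor groups overlapped, and so did the pair SS40 with *miR-214* and SS64 with *miR-214* and the pair SS64 NC and SS40 NC. *Clu*, by its brightest probe set 1437458_PM_x_at, was 11.39 ± 0.028 in the mix, 11.05 ± 0.63 in SS tumors and 11.00 ± 0.74 in SS214 tumors, which overlapped with each other. It was 9.63 ± 0.065 in eMCs with *SS18-SSX1*, 8.97 ± 0.058 with the empty vector, 6.91 ± 0.14 in SS40 NC and 6.44 ± 0.082 in SS40 with *miR-214*, and at or near the floor in SS64.

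**Figure D1:**
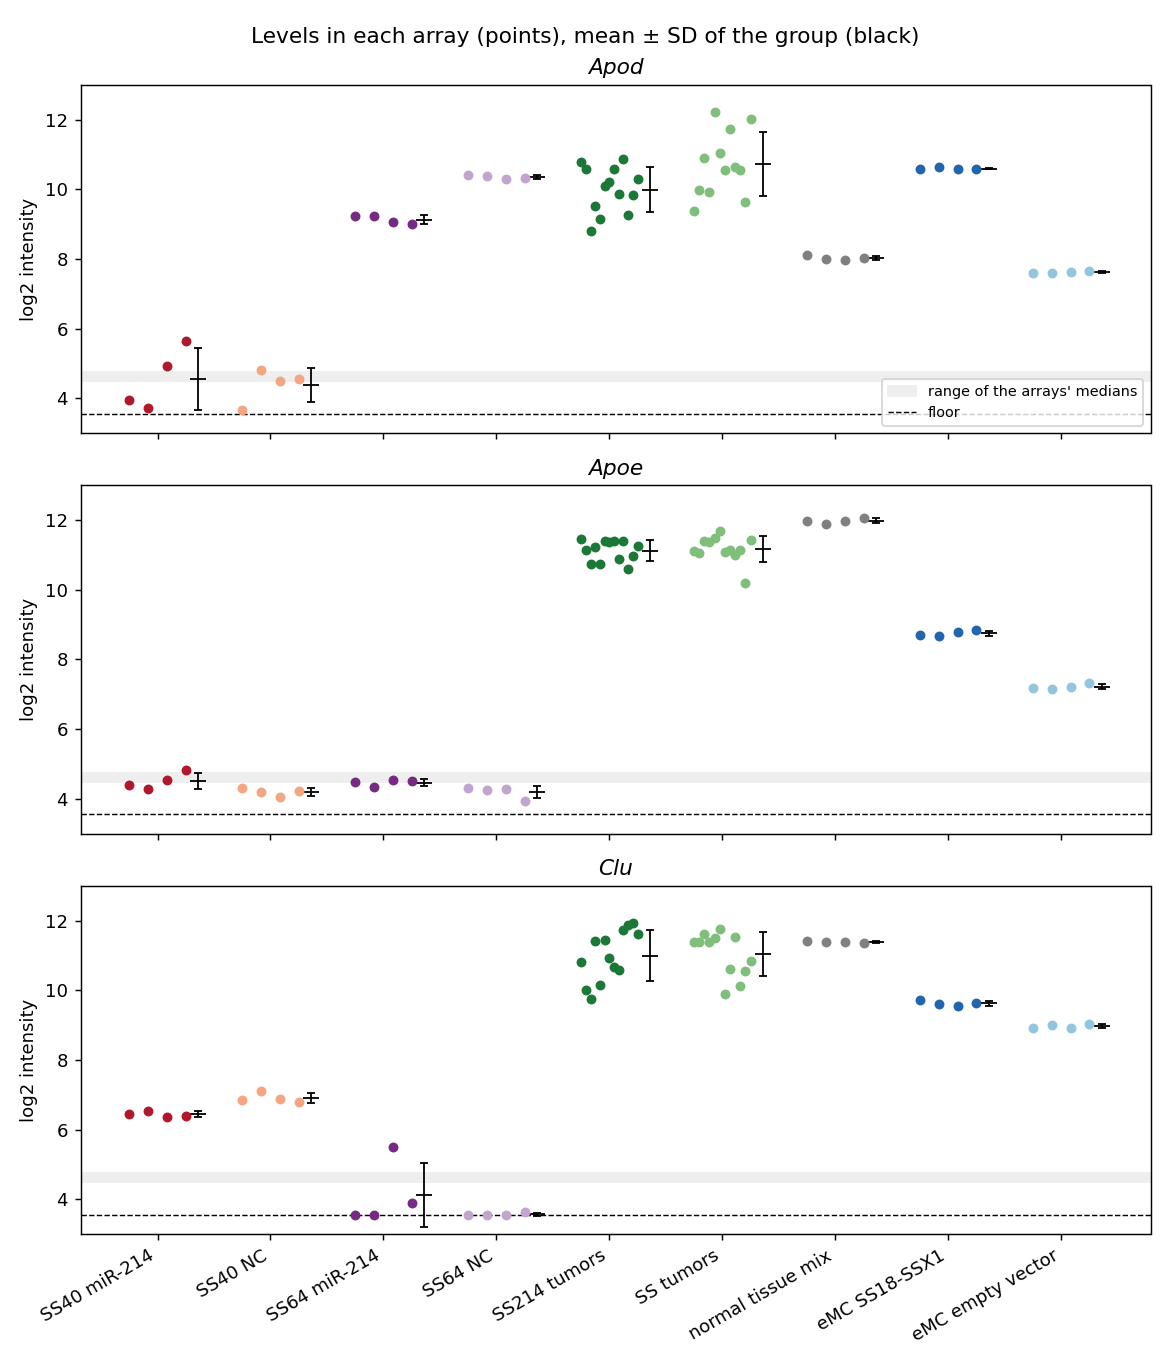
Log2 intensity (y axis) of *Apod*, *Apoe* and *Clu* (brightest probe set) in each array, by group (x axis); black marks give the mean and SD, the dashed line the floor of 3.55 and the grey band the medians of the arrays. *Apod* is near 10.4 in SS64 NC and 4.4 in SS40 NC, *Apoe* is near 4.2 in both, and *Clu* is higher in SS40 than in SS64.

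Over the 53 arrays, Pearson's r was 0.93 between *Apoe* and *Clu*, 0.59 between *Apod* and *Apoe* and 0.36 between *Apod* and *Clu*, a description over arrays that share their groups. The genes whose pattern was most like *Apod* among 16369 genes were *Id4* (r = 0.92), *Slc44a1* (0.92), *Crip1* (0.91), *Entpd2* (0.90) and *Nrp1* (0.89). *Id4*, an inhibitor of basic helix-loop-helix factors, averaged 10.08 in SS tumors, 9.22 in SS64 NC and 4.00 in SS40 NC. Those most like *Apoe* were *Myl1* (0.99), *Acta1* (0.99), *Selenop* (0.98), *Tnnc2* (0.98) and *Mylpf* (0.98), of which *Myl1*, *Acta1*, *Tnnc2* and *Mylpf* encode proteins of the skeletal muscle sarcomere and *Selenop* a secreted selenium carrier. *Selenop* averaged 11.95 in SS tumors, 12.62 in the mix and 6.48 in SS40 NC. For *Clu* they were *Ndrg2* (0.97), *Car3* (0.96), *Icam1* (0.96), *H2-T23* (0.96) and *Pnrc1* (0.95).

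The comparison of eMCs asked what changed when *SS18-SSX1* was present for 48 h, and all 3 genes were higher, *Apod* most. *Apod* read 10.59, 10.63, 10.58 and 10.59 with *SS18-SSX1*, against 7.59, 7.60, 7.63 and 7.66 with the empty vector. The 8 arrays fell into separate narrow bands, 2.98 apart on the log2 scale (SE 0.030, 7.87-fold, adjusted p = 8.32e-18), the 30th largest rise of the genes tested. *Apoe* read 8.72, 8.68, 8.78 and 8.83 with *SS18-SSX1*, against 7.18, 7.16, 7.21 and 7.33 with the empty vector, a difference of 1.53 (SE 0.049, 2.89-fold, adjusted p = 1.55e-12) with no overlap. *Clu* read 9.71, 9.62, 9.55 and 9.63, against 8.91, 8.99, 8.93 and 9.04, again with no overlap. Its difference was 0.66 (SE 0.038, 1.58-fold, adjusted p = 1.39e-09), and its other probe sets gave 0.78 and 0.96. These are 3 of 3 genes that passed in the higher direction, where 29.4% of the 15324 genes tested were higher and 19.5% lower. In bulk RNA such as this, more cells of a type and more RNA per cell cannot be told apart. With 1 fit over all arrays, whose spread is that of the tumors, the adjusted p for *Clu* was 0.34.

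The promoter of *Apod* is shown beside that of *Apoe*, since the lines differ in *Apod* and not detectably in *Apoe* (over the 16 line arrays *Apod* ran from 3.67 to 10.42 and *Apoe* from 3.94 to 4.83). *Clu* had no entry. Both windows run from 250 bases before the annotated start to 30 after it, on the minus strand, from RefSeq on GRCm38.p6, with *Apod* at chr16:31314779-31315058 and the promoter of *Apoe* listed first at chr7:19699159-19699438. Capitals mark ATTGTT, a form of the core bound by SOX factors, on either strand.
Apod: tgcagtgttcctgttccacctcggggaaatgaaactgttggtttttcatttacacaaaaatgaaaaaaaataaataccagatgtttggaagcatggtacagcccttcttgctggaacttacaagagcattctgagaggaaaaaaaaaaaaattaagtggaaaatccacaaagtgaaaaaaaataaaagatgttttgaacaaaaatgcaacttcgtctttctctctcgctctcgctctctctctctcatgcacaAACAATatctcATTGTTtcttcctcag
Apoe: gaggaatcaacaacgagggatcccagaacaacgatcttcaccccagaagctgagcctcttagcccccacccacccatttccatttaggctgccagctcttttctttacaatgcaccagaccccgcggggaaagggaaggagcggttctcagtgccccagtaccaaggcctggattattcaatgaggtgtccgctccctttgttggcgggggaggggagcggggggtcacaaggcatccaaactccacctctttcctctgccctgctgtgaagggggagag
The *Apod* window holds ATTGTT on both strands, just after the start, and the *Apoe* window holds no ATTGTT. Other forms of the SOX core were not searched for, so a window without ATTGTT may still hold them. Of 32851 promoters of 300 bases, 10.7% hold at least 1 match to ATTGTT and 1.11% hold 2 or more. A match of this length is a description of the letters and not a site. The LXR element, AGGTCA repeated after 4 bases, was in none of the listed promoters of *Apod*, *Apoe* and *Abca1*, and in 0.0152% of all promoters.

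Genes that act with these members moved in both directions in eMCs with *SS18-SSX1*. Of 14 LXR factors and targets with a probe set, 13 were tested, 7 were higher and 2 lower, with a median difference of 0.39, against about 0.00 for all genes. *Apoc1*, a small apolipoprotein transcribed from the *Apoe* cluster, was 7.25 against 5.51 (1.74, SE 0.082), the desaturase *Scd1* 11.21 against 10.25 (0.96) and the lipoprotein lipase *Lpl* 11.45 against 10.76 (0.68). The sterol exporter *Abcg1* was 7.47 against 7.07 (0.39), and *Nr1h3*, which encodes LXRα, 4.99 against 4.96 (adjusted p = 0.82). Of 10 receptors, 2 were higher and 5 lower. Those lower included the reelin and apolipoprotein E receptors *Vldlr* (-0.86) and *Lrp8* (-0.42) and the scavenging receptor *Lrp1* (-0.48). Of 8 genes of cholesterol handling and esterification, in the lysosome or elsewhere, 6 were higher and 1 lower. The higher ones included the cholesteryl ester hydrolases *Nceh1* (1.29) and *Lipa* (0.85). Of 18 cholesterol synthesis genes, 17 were tested, 5 were higher and 1 lower. Macrophage markers moved with them. Of 15, 9 of the 14 tested were higher and 1 lower, and their summed intensity was 6451 to 6606 with *SS18-SSX1*, against 4395 to 4451 with the empty vector. Endothelial markers were higher in 8 of 8 and cartilage markers lower in 9 of 9. The skeletal muscle sarcomere genes most like *Apoe* over the arrays also averaged higher with *SS18-SSX1*. *Tnnc2* was 8.41 against 5.46, *Myl1* 9.73 against 7.06, *Mylpf* 9.30 against 6.79 and *Acta1* 9.83 against 7.66. Their part in the differences of *Apod*, *Apoe* and *Clu* was not tested.

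SS tumors were set against the tissue mix, against eMCs with the empty vector and against eMCs with *SS18-SSX1*, comparisons that share the tumor arrays. *Apod* ran from 9.39 through a median of 10.60 to 12.23 in the 12 SS tumors, a 7.17-fold range. The tumors numbered 22, 33 and 27 were highest at 12.23, 12.04 and 11.72, and tumor 5 was lowest at 9.39. Every tumor lay above the mix, which read 8.13, 7.99, 7.98 and 8.03 (difference 2.68, SE 0.43, 6.43-fold, adjusted p = 3.34e-05), and above all eMCs with the empty vector (3.10, SE 0.42, 8.55-fold, adjusted p = 5.65e-06). The 4 arrays of eMCs with *SS18-SSX1*, at 10.58 to 10.63, lay inside the range of the tumors, and the difference of 0.12 had an SE of 0.43 (adjusted p = 0.82).

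*Apoe* ran from 10.21 through a median of 11.14 to 11.70 in SS tumors, with tumor 30 lowest, against 11.99, 11.90, 11.98 and 12.06 in the mix. All 12 tumors lay below the mix (-0.80, SE 0.17, 1.75-fold lower, adjusted p = 0.00072). They lay 3.96 above eMCs with the empty vector (SE 0.18, 15.5-fold, adjusted p = 1.94e-12) and 2.43 above eMCs with *SS18-SSX1* (SE 0.17, 5.38-fold, adjusted p = 1.78e-09), without overlap in either case. *Clu* ran from 9.89 through a median of 11.39 to 11.77 in SS tumors, against 11.41, 11.39, 11.40 and 11.35 in the mix, which lay within that range (-0.34, SE 0.29, adjusted p = 0.34). Against eMCs the tumors were higher, by 2.08 over the empty vector (SE 0.29, 4.23-fold, adjusted p = 6.86e-06) and by 1.42 over *SS18-SSX1* (SE 0.29, 2.67-fold, adjusted p = 0.00042). Passing genes were thus 1 higher and 1 lower of 3 against the mix (36.1% and 27.2% of 15677 genes tested), 3 higher of 3 against the empty vector (32.6% higher and 35.7% lower of 15623) and 2 higher of 3 against eMCs with *SS18-SSX1* (31.0% higher and 33.6% lower of 15510). With the *Gapdh* ratio as a covariate, which differs between these groups, *Clu* was -1.07 against the mix (adjusted p = 0.028), 1.30 against the empty vector (adjusted p = 0.012) and 0.50 against eMCs with *SS18-SSX1* (adjusted p = 0.40), and *Apod* and *Apoe* kept their side of the threshold.

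**Figure D2:**
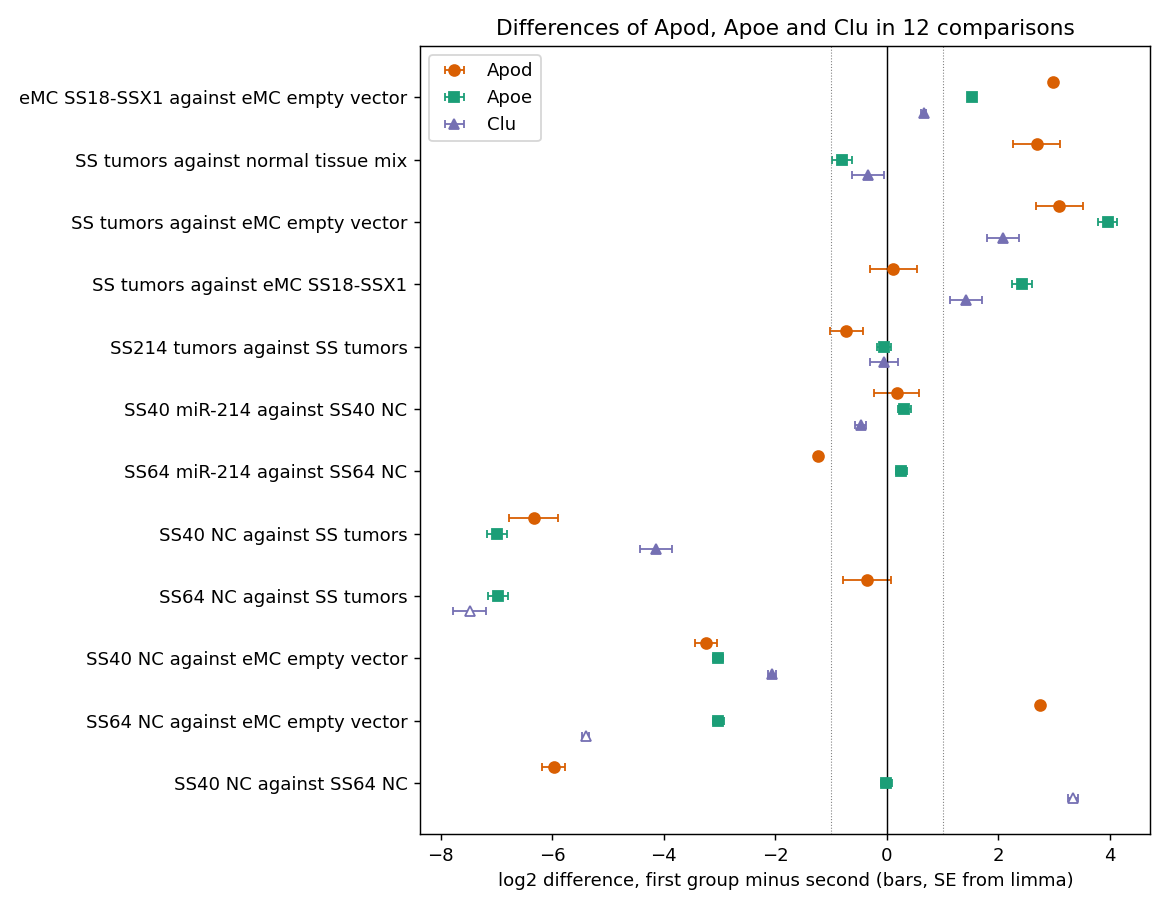
Log2 difference (x axis, first group minus second, bars SE) of *Apod* (circles), *Apoe* (squares) and *Clu* (triangles, brightest probe set) in 12 comparisons; dotted lines mark a 2-fold difference and open triangles a group with *Clu* mostly at the floor, where the fit understates the difference. *Clu* was not tested in SS64 with *miR-214*. *Apoe* lies near -7 in both lines against SS tumors, and *Apod* only in SS40.

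The other 12 apolipoproteins did not follow *Apod*. All 12 were lower in SS tumors than in the mix, with a median of -5.68 against 0.065 for all genes. *Apoa2* (4.09 against 12.71), *Apoc3* (3.55 against 11.78), *Apoa1* (3.67 against 11.15) and *Apof* (3.55 against 10.33), which liver secretes on plasma lipoproteins, fell most. The mix holds liver, and 8 of 8 hepatocyte markers tested were lower in tumors, with a summed intensity of 405 to 3113 in SS tumors against 34605 to 36495 in the mix. Against eMCs with the empty vector, 7 of 11 apolipoproteins tested were lower and 0 higher, by at most 0.63 on the log2 scale at levels near the floor.

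LXR factors and targets divided. Against the empty vector, 6 of the 13 tested were higher in SS tumors and 2 lower. The phospholipid transporter *Abca7* was 8.03 against 5.34 (2.69), *Abcg1* 9.29 against 7.07 (2.21), *Mylip*, whose product degrades LDL receptors, 10.36 against 8.85 (1.51), and the phospholipid transfer protein *Pltp* 6.66 against 5.24 (1.43). *Nr1h3* itself was 5.14 against 4.96 (adjusted p = 0.26). Of the receptors, 3 of 10 were higher and 4 lower, with *Sorl1* at 9.23 against 6.25 (2.98), *Vldlr* at 5.59 against 7.84 (-2.24) and *Lrp8* at 4.97 against 6.40 (-1.43). Of 18 cholesterol synthesis genes, 3 were higher and 9 lower (median -0.37, against -0.034 for all genes). Skeletal muscle markers were higher in 8 of 8 with a median of 6.10. Of 15 macrophage markers, 14 were tested, 3 were higher and 4 lower, with the complement subunits *C1qa* (2.68) and *C1qb* (2.26) up and *Cd68* (-3.21) and *Cd14* (-2.62) down. What these cells contributed to *Apod*, *Apoe* and *Clu* was not tested.

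*Apod* and *Apoe* rose together over SS214 tumors. Among the 13 of them, Pearson's r was 0.84 and Spearman's rho 0.83 (permutation p adjusted over 6 relations, 0.0026 and 0.0043), and without the 2 tumors farthest from the median of *Apod* r was 0.77. Tumors 1 and 13 were high in both genes, at 10.78 and 10.86 for *Apod* and 11.45 and 11.41 for *Apoe*, and tumors 3, 5 and 14 low, at 8.81, 9.16 and 9.26 for *Apod* and 10.75, 10.76 and 10.61 for *Apoe*. Over the 12 SS tumors r was 0.54 and rho 0.66, and neither passed (permutation p adjusted, 0.19 and 0.073). *Clu* showed no relation to *Apod* or *Apoe* that passed in either group, with r from 0.023 to 0.45.

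Macrophage markers accompanied *Apod* in SS214 tumors and *Clu* in SS tumors. Between the mean of the 15 markers and *Apod*, r was 0.87 in SS214 tumors (rho 0.86, permutation p adjusted over 66 relations, 0.0066 and 0.012), 0.77 without the 2 farthest tumors, and 0.37 in SS tumors (adjusted permutation p = 0.45). For *Clu*, r was 0.30 in SS214 tumors (adjusted permutation p = 0.51) and 0.81 in SS tumors (rho 0.84, adjusted permutation p = 0.015 and 0.024) and 0.79 there without the 2 farthest. For *Apoe*, r was 0.64 in SS214 tumors (adjusted permutation p = 0.10) and 0.67 in SS tumors (adjusted permutation p = 0.067), and neither passed. In SS tumors *Clu* also rose with the adipocyte (r = 0.87), skeletal muscle (0.85), hepatocyte (0.80) and mesenchymal (0.80) markers, all past the adjusted threshold by r and by rho. The hepatocyte list varied in SS tumors mainly through *Cyp2e1* (SD 1.80) and less through *Ttr* (SD 0.63). *Alb*, *Serpina1a*, *Fgb*, *Fga*, *Tat* and *Hpx* averaged 3.55 to 4.19 there, below the medians of the arrays. This relation is thus not a measure of liver cells. In SS214 tumors *Clu* passed with mesenchymal (0.77) and Schwann cell markers (0.74). Among those numbered 1 to 9 the mesenchymal relation had an r of 0.52 (exact permutation p = 0.15), and the Schwann cell relation was not computed. The Schwann cell list varied in SS214 tumors mainly through *Erbb3* (SD 0.80). *S100b*, *Sox10* and *Mag* averaged 4.41, 5.06 and 5.08 there, close to the medians of the arrays. *Apoe* passed with mesenchymal markers in SS tumors (0.76, adjusted permutation p = 0.025), but r was 0.39 without the 2 farthest tumors, and with hepatocyte markers in SS214 tumors (0.70, adjusted permutation p = 0.050), and rho passed in neither case. In SS214 tumors too, the hepatocyte list varied mainly through *Cyp2e1* (6.90 to 12.14) and *Ttr* (6.53 to 8.75). Its other markers averaged 3.55 to 4.24 there. No member passed with the *Gapdh* ratio, though for *Clu* in SS tumors r was 0.54 (adjusted permutation p = 0.22) and 0.73 without the 2 farthest tumors. The part of RNA quality in the relations of *Clu* was not tested. Whether the relations differ between the tumor groups was not tested.

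**Figure D3:**
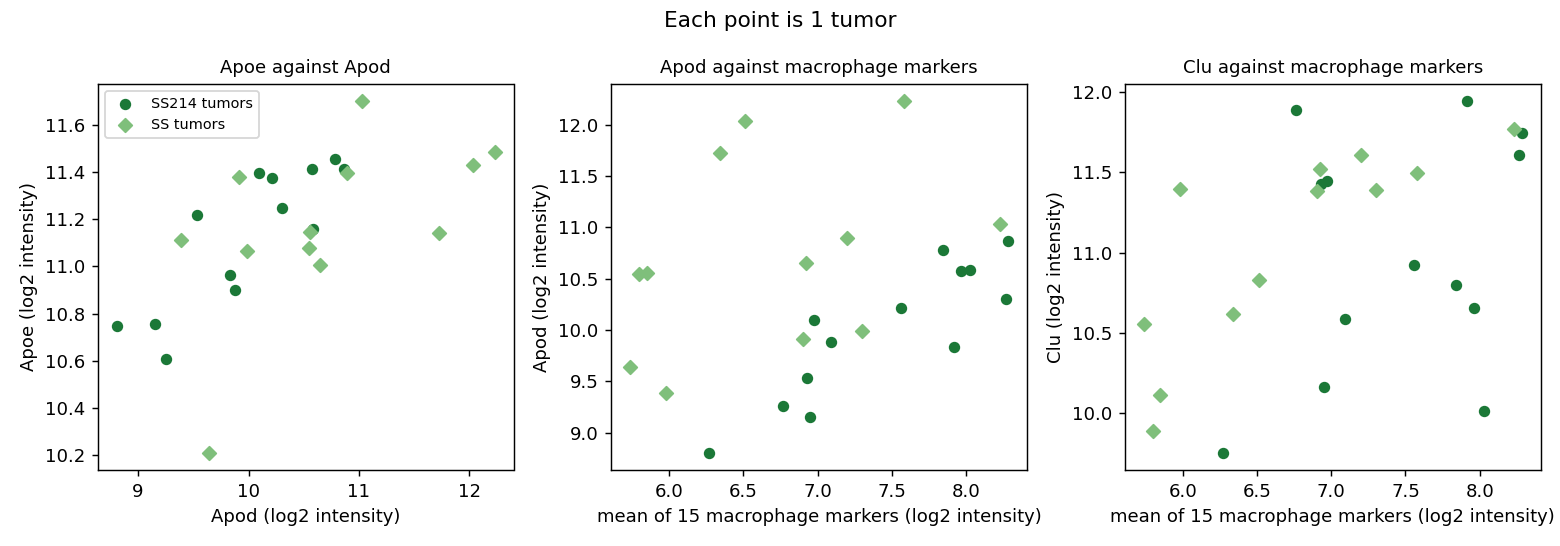
Log2 intensity of *Apoe* against *Apod* (left), *Apod* against the mean of 15 macrophage markers (middle) and *Clu* against that mean (right), each point 1 tumor, circles SS214 and diamonds SS. *Apod* rises with *Apoe* and with macrophage markers in SS214 tumors (r = 0.84 and 0.87), and *Clu* with macrophage markers in SS tumors (r = 0.81).

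The comparison of SS214 with SS tumors asked what *miR-214* brought in by the virus adds to tumors with the same fusion gene. The study describes *miR-214* as raised in some tumors made with the fusion gene alone, with or without a viral insertion in the gene that holds it. Tumors labeled like those with such an insertion are in the SS group. The SS group can thus not be taken as free of raised *miR-214*, whose level in each tumor was not analysed here. *Apod* ran from 8.81 through a median of 10.10 to 10.86 in SS214 tumors and from 9.39 through 10.60 to 12.23 in SS tumors. The ranges overlapped, and no SS214 tumor reached the 5 highest SS tumors. The difference of -0.73 (SE 0.30, 1.65-fold lower) had an adjusted p of 0.055. It passed after quantile normalization (-0.78, adjusted p = 0.042) and in 1 fit of all arrays (adjusted p = 0.013), and not with the *Gapdh* ratio as a covariate (-1.15, adjusted p = 0.19). *Apoe* ran from 10.61 through 11.22 to 11.45 in SS214 tumors and from 10.21 through 11.14 to 11.70 in SS tumors (-0.053, SE 0.13, adjusted p = 0.77). *Clu* ran from 9.76 through 10.93 to 11.94 in SS214 tumors and from 9.89 through 11.39 to 11.77 in SS tumors (-0.050, SE 0.26, adjusted p = 0.89). By limma, 0 of the 3 genes passed, and 1 had an unadjusted p under 0.05 (*Apod*, lower), where 22.6% of 15643 genes were higher and 17.3% lower after adjustment. Among SS214 tumors, those numbered 13 to 16 had *Clu* at 11.61 to 11.94 and those numbered 1 to 9 at 9.76 to 11.44, a split chosen after the values were seen and not tested. The mean log2 level of 4 lung epithelial markers split the same tumors, at 6.44 to 9.17 in 13 to 16 and 3.77 to 5.25 in 1 to 9, and so did that of the mesenchymal markers, at 8.96 to 9.25 and 7.80 to 8.83. Their part in the level of *Clu* was not tested.

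Lipid genes around the members did differ between the tumor groups. Of 18 cholesterol synthesis genes, 10 were higher in SS214 tumors and 2 lower (median 0.34, against 0.042 for all genes). *Fdps*, the farnesyl diphosphate synthase, was 8.61 in SS214 tumors and 7.60 in SS tumors (1.01, adjusted p = 1.67e-05), *Idi1* 8.85 and 8.03 (0.82) and the sterol oxidase *Msmo1* 8.08 and 7.33 (0.76). Of 14 LXR factors and targets, 2 were higher and 3 lower, with *Abcg1* at 8.39 and 9.29 (-0.90, adjusted p = 9.39e-06). Of 10 receptors, 2 were higher, *Trem2* (5.29 and 4.80) and *Bsg* (10.46 and 10.00), and 4 lower, among them *Sorl1* (8.28 and 9.23) and *Lrp1* (7.71 and 8.64, adjusted p = 0.0028). *Vldlr* was at 5.63 and 5.59 (adjusted p = 0.94). *Apoc1* was 6.83 and 5.54 (1.29, adjusted p = 0.027). Of 15 macrophage markers 9 were higher and 0 lower (median 0.81), with a summed intensity of 2817 to 11759 in SS214 tumors and 1362 to 11505 in SS tumors, and the *Gapdh* ratio was lower, as given above. Their part in these differences was not tested. With the *Gapdh* ratio as a covariate 972 genes passed between the tumor groups, against 6237 without it. The values of this paragraph are without it.

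The line experiment asked what transfected *miR-214* does in sarcoma cells. Both arms of *miR-214* are shown because the arm that was introduced is not given in the sources used here. They are RefSeq mature sequences on GRCm38.p6, plus strand, at chr1:162223397-162223418 for the 5p arm and chr1:162223438-162223459 for the 3p arm, with the seed (bases 2 to 8) in capitals.
mmu-miR-214-5p: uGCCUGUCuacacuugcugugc
mmu-miR-214-3p: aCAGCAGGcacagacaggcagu
In SS64, *Apod* read 9.23, 9.24, 9.05 and 9.01 with *miR-214*, against 10.42, 10.40, 10.29 and 10.33 with NC. The groups did not overlap, and *Apod* fell by 1.23 on the log2 scale (SE 0.059, 2.34-fold lower, adjusted p = 3.75e-07), the 12th largest fall of the genes tested. In SS40, *Apod* read 3.95, 3.72, 4.92 and 5.65 with *miR-214*, against 3.67, 4.81, 4.49 and 4.57 with NC, and these overlapped (0.17, SE 0.41, adjusted p = 0.93). Its median percentile among the probe sets of an array was 44.7 in SS40 with *miR-214* and 49.3 in SS40 NC. The difference of the response between the lines was 1.40 (SE 0.45, SS40 minus SS64) and did not pass (adjusted p = 0.28, where 0.468% of 15826 genes were higher and 0.404% lower), so that a fall particular to SS64 was not shown. In 1 fit of all arrays the fall in SS64 did not pass (adjusted p = 0.22).

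*Apoe* was near the medians of the arrays in all 16 line arrays and did not pass in either line. In SS40 it read 4.38, 4.28, 4.54 and 4.83 with *miR-214*, against 4.30, 4.21, 4.05 and 4.22 with NC (0.32, SE 0.12, adjusted p = 0.44). In SS64 it read 4.48, 4.33, 4.55 and 4.50, against 4.31, 4.26, 4.29 and 3.94 (0.26, SE 0.098, adjusted p = 0.14). *Clu* in SS40 read 6.46, 6.55, 6.36 and 6.39 with *miR-214*, against 6.86, 7.11, 6.88 and 6.79 with NC, without overlap. The difference of -0.47 (SE 0.11) had an adjusted p of 0.11, and the other probe sets gave -0.53 and -0.42. The mean over the 3 probe sets gave -0.47 with an adjusted p of 0.047. In SS64 the brightest *Clu* probe set was under the floor in 2 of 4 arrays with *miR-214* and 3 of 4 with NC and was not tested. Its value in replicate 3 with *miR-214* was 5.50, a rise the other 2 probe sets did not show in that array (at the floor and 4.57). Of the 3 genes, 1 fell in SS64, where 8.02% of 15403 genes were lower and 4.90% higher, and 0 passed by limma in SS40, where 0.790% of 15440 were lower and 0.240% higher. Without adjustment, *Apoe* and *Clu* in SS40 (p = 0.027 and 0.0013, limma) and *Apoe* in SS64 (p = 0.020) were under 0.05.

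Among the related genes, *Lipa*, the lysosomal acid lipase that frees cholesterol from lipoproteins, fell in both lines. It was 6.85 with *miR-214* and 7.96 with NC in SS40 (-1.12, SE 0.16, adjusted p = 0.015), and 8.30 with *miR-214* and 9.77 with NC in SS64 (-1.47, SE 0.045, adjusted p = 2.30e-08). It was the 1 gene of 8 in cholesterol handling and esterification that passed in either line. Of 17 cholesterol synthesis genes tested, 2 rose in SS40 (*Srebf2*, 0.64, and *Idi1*, 0.51), and 3 rose and 2 fell in SS64. *Mylip* fell in SS64 (7.10 with *miR-214* and 7.71 with NC, adjusted p = 0.0050). No LXR gene passed in SS40, and none of the 12 other apolipoproteins passed in either line.

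Set against SS tumors, both lines were lower in *Apoe* and *Clu*, and SS40 was also lower in *Apod*. *Apoe* averaged 18.3 in linear intensity in SS40 NC and 18.4 in SS64 NC, against 2318 in SS tumors (geometric means). The differences were -6.98 in each line (SE 0.18, 127-fold lower in SS40 and 126-fold in SS64, adjusted p = 9.26e-16 and 7.19e-16), with all 8 arrays far below all 12 tumors. Both lines were also below eMCs with the empty vector, with differences of -3.03 in SS40 NC and -3.02 in SS64 NC. *Apoe* did not differ detectably between SS40 NC and SS64 NC (-0.0076, SE 0.097, adjusted p = 0.97).

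*Apod* in SS64 NC was within the range of SS tumors (-0.36, SE 0.42, adjusted p = 0.47) and above eMCs with the empty vector, by 2.74 (SE 0.042, 6.68-fold, adjusted p = 3.42e-15). In SS40 NC it was below every tumor (-6.33, SE 0.44, 80.5-fold, adjusted p = 7.20e-10), and also below eMCs with the empty vector (-3.24). Between the lines, SS40 NC was below SS64 NC (-5.98, SE 0.20, 62.9-fold, adjusted p = 1.14e-09), the 9th largest fall of the genes tested. *Sox2* moved with it, at 3.57 in SS40 NC and 10.74 in SS64 NC. Of 4 Schwann cell markers 2 were lower in SS40 NC and 0 higher, *Sox10* at 5.11 in SS40 NC and 9.60 in SS64 NC (-4.49, SE 0.075) and *Erbb3* at 5.04 and 10.49 (-5.45, SE 0.11). The summed intensity of the 4 markers was 122 to 131 in SS40 NC and 2184 to 2379 in SS64 NC, and their part in the level of *Apod* was not tested.

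*Clu* went the other way between the lines. The brightest probe set read 6.86, 7.11, 6.88 and 6.79 in SS40 NC, and in SS64 NC 3 of 4 arrays were under the floor and the other read 3.62. Probe set 1437689_PM_x_at, under the floor in all SS64 arrays, gave a level at least 7.99-fold higher in SS40 NC than in SS64 NC (adjusted p = 4.30e-09), and 1418626_PM_a_at, above the floor in all of them, gave 1.88-fold (0.91, SE 0.13, adjusted p = 0.00012). The 3 probe sets thus agreed in direction and not in size. Against SS tumors *Clu* was 17.6-fold lower in SS40 NC (-4.14, SE 0.29, adjusted p = 8.58e-10). In SS64 NC it was at least 182-fold lower by 1437689_PM_x_at (adjusted p = 4.52e-13) and 37.2-fold lower by 1418626_PM_a_at (adjusted p = 1.18e-09).

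**Figure D4:**
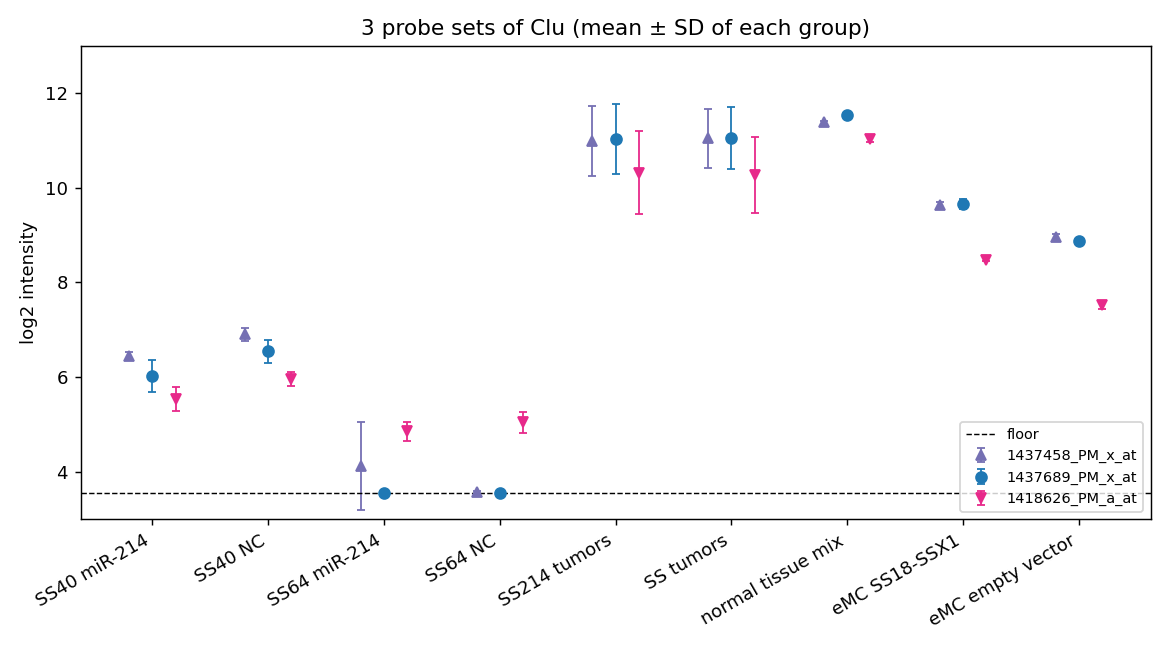
Log2 intensity (y axis, mean and SD) of the 3 probe sets of *Clu* in each group (x axis), with the floor of 3.55 as a dashed line. All 3 are higher in tumors, the mix and eMCs than in the lines, and in SS64 the probe sets 1437458_PM_x_at and 1437689_PM_x_at lie at or near the floor while 1418626_PM_a_at stays near 5.

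Against SS tumors, 3 of 3 genes were lower in SS40 NC (31.9% of 15619 genes tested were lower and 39.3% higher) and 2 of 3 in SS64 NC (31.7% lower and 39.0% higher of 15643). Against the empty vector, 3 of 3 were lower in SS40 NC (25.8% lower and 32.8% higher of 15495), and 2 were lower and 1 higher in SS64 NC (26.1% lower and 34.9% higher of 15501). Between the lines, 1 was lower and 1 higher in SS40 NC (22.1% and 26.4% of 15473). Of 15 macrophage markers, 14 were tested, and 10 were lower in each line than in SS tumors, with 1 higher in SS40 NC and 0 in SS64 NC. Their summed intensity was 444 to 489 in SS40 NC and 288 to 316 in SS64 NC, against 1362 to 11505 in SS tumors. *Lyz2*, *C1qa* and *Ctss* were at 3.69, 4.16 and 4.41 in SS40 NC and 3.80, 3.91 and 4.16 in SS64 NC. *Cd14*, the lipopolysaccharide co-receptor, was higher in SS40 NC and lower in SS64 NC, at 7.52 and 4.65, against 5.50 in SS tumors. Skeletal muscle markers summed to 205 to 264 in SS40 NC and 219 to 260 in SS64 NC, against 11746 to 48052 in SS tumors. Their part in the levels of *Apoe* and *Clu* was not tested.

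Of the partners of these genes, 8 of 14 LXR factors and targets were lower in SS40 NC than in SS tumors and 3 higher, and 9 were lower in SS64 NC and 1 higher. The lower ones include the partner factors *Rxra* and *Rxrb* in both lines. *Abcg1* was 6.55 in SS40 NC and 5.52 in SS64 NC, against 9.29 in SS tumors, *Lpl* 5.50 and 4.99, against 9.73, and *Mylip* 6.24 and 7.71, against 10.36. The receptor *Lrp1* was 6.24 and 7.33, against 8.64, while *Lrp8*, which encodes the apolipoprotein E receptor 2, was 7.27 and 7.11, against 4.97. The lines parted over cholesterol synthesis. Of 17 genes tested, 15 were lower in SS40 NC than in SS64 NC and 0 higher (median -0.95, against 0.020 for all genes), among them *Dhcr7* (6.67 against 8.43), the feedback regulator *Insig1* (7.70 against 9.34), *Fdps* (8.66 against 10.14) and *Lss* (4.76 against 6.18). Of the genes of cholesterol handling and esterification, *Nceh1* (7.72 against 10.39) and *Lipa* (7.96 against 9.77) were also lower in SS40 NC, and *Abcg1* higher (1.03, SE 0.11, adjusted p = 1.63e-05).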

How the data were processed

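Per the labels, 53 arrays of total RNA were analysed. The authors deposited 1 linear intensity per probe set and array for 45141 probe sets, already brought to a common scale. MAS5 stands in the submitters' processing notes with no version, and the background step is not given in the sources used here. Detection calls were not used, and precision is limited by the number of arrays. From the deposited intensity, 104 control probe sets were left out, a floor of 11.7, the median of the arrays' 20th percentiles, replaced lower values, and log2 was taken. For each pair of groups, those exceeding the floor in at least 4 arrays were fitted with lmFit and eBayes (trend = TRUE) of limma 3.58.1 under R 4.3.3, with Benjamini-Hochberg adjustment. The difference of the *miR-214* response was fitted over the 16 arrays of both lines. Fold changes at or near the floor are understated.

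Symbols came from GEO's platform annotation, updated by gene ID for 28689 probe sets: 28898 had 1 symbol, 551 several and 15588 none. A gene took its brightest probe set. Named from the lists were up to 4 genes with the largest change among those that passed and genes whose role bears on a member. The 5 genes with the highest r were named for likeness, and *Sox2* and *Gapdh* as checks. Macrophage genes at the lines' low levels, *Cd14*, *C1qa*, *C1qb*, *Rxra* and *Rxrb* were chosen after their values were seen. So were the lung, Schwann cell and hepatocyte values, the levels of *Selenop*, *Id4* and the sarcomere genes, and the numbered tumors. Members and lists were chosen with earlier results of these data known. Relations within tumors were tested with 100000 permutations. Same-numbered SS64 arrays departed from their group means together (r = 0.22 to 0.35). For replicates 1 and 3 with *miR-214*, an NC array of another number matched better (r = 0.376 and 0.381). Pairing by number was thus not shown, the study does not state it, and the main fits used no block. The blocked fit changed no call of a member. The fit was tested on simulated data, and the recovery given here is from a run repeated with another random seed. In SS40 it recovered 55 of 66 3-fold and 48 of 67 2-fold changes, against 66 of 66 and 64 of 67 in SS64. Power was thus lower in SS40, and the pass mark for 3-fold changes was lowered after this SS40 result was seen. Plots used Python 3.11.15 with matplotlib 3.10.9. Alternatives were quantile normalization, other floors, no filter, the mean over probe sets, 1 fit of all arrays, the methods' t-test, the replicate block, leaving out each replicate, the *Gapdh* ratio as a covariate and only SS214 tumors 1 to 9.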

Additional observations from a re-analysis of the deposited data

Results flagged for a closer look

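*Apoe* in SS64 NC replicate 4 was 3.94 on the log2 scale, apart from the other 3 arrays at 4.26 to 4.31. The gap was 0.87 of the range of the group, above Dixon's critical value for 4 arrays. Of 35 groups of values examined, 1 stood out in this way, and chance gives about 1 in 20.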

How the results depend on the processing

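Of 562 alternative values of 38 results for the brightest probe sets, 552 kept their direction, where one was called, and their side of the threshold, and 0 of the called ones turned round. *Apod* in SS214 against SS tumors passed after quantile normalization (-0.78), in 1 fit of all arrays (-0.73) and by the methods' t-test without adjustment (-0.73, p = 0.032). *Clu* passed against the mix with the *Gapdh* ratio as a covariate (-1.07), in SS40 with *miR-214* as a mean over probe sets (-0.47, adjusted p = 0.047) and by the t-test without adjustment (-0.47), and *Apoe* in SS64 with *miR-214* likewise (0.26). In 1 fit of all arrays *Clu* in eMCs (0.66, adjusted p = 0.34) and *Apod* in SS64 with *miR-214* (-1.23, adjusted p = 0.22) no longer passed, nor did *Clu* in SS tumors against eMCs with *SS18-SSX1* with the *Gapdh* ratio (0.50). The cause was not tested.

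Counts of passing genes moved by more than 1.5 times in 1 fit of all arrays (eMCs, 1897 against 7495; SS40, 260 against 159; SS64, 289 against 1990), with the *Gapdh* ratio (SS214 tumors, 972 against 6237), and by the t-test without adjustment (SS40, 1840; SS64, 3763). Leaving out 1 replicate gave 45 to 423 genes in SS40, where the lowest was without NC replicate 3 and the highest without *miR-214* replicate 4, and 285 against 138 for the difference between the lines without SS40 *miR-214* replicate 4. With the replicate number as a block, *Apod* in SS64 with *miR-214* kept its difference of -1.23 (adjusted p = 1.43e-08), 2810 genes passed in SS64, 41 in SS40, 7663 in eMCs and 89 for the difference between the lines. Same-numbered arrays correlated at 0.011 to 0.15 in eMCs and -0.28 to 0.46 in SS40, so those numbers were not taken as pairs either. Within SS214 tumors 1 to 9, an alternative chosen after seeing the data, r was 0.82 between *Apod* and *Apoe* (exact permutation p = 0.0089) and 0.92 between *Apod* and macrophage markers (exact permutation p = 0.00026). In SS64, 2 of the 3 *Clu* probe sets lay at or near the floor, where only bounds could be given.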

Other observations

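Some other lipocalins, the family of *Apod*, and some regulators of complement, on which clusterin also acts, differed between groups. The differences between SS214 and SS tumors given here are without the *Gapdh* ratio as a covariate. The part of RNA quality and of other cell types in them was not tested. *Lcn2*, a lipocalin that binds bacterial siderophores, was 10.40 in eMCs with *SS18-SSX1* and 9.06 with the empty vector (1.34, SE 0.037, adjusted p = 2.76e-13), and 7.21 in SS214 tumors and 4.49 in SS tumors (2.72, SE 0.49, adjusted p = 0.00012). It ran from 4.07 to 9.58 in SS214 tumors and from 3.55 to 7.11 in SS tumors. Of 8 lipocalins tested, 2 were higher and 3 lower in eMCs with *SS18-SSX1* (29.4% and 19.5% of all genes), and 2 higher and 0 lower in SS214 tumors (22.6% and 17.3%). *Rbp4*, the plasma retinol carrier, was 6.61 in SS tumors and 11.81 in the mix, and 6.40 in SS40 NC and 4.24 in SS64 NC.

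*Cd55*, which speeds the decay of complement convertases, was 6.09 in eMCs with *SS18-SSX1* and 4.80 with the empty vector (1.29, SE 0.072), and 6.15 in SS214 tumors and 4.84 in SS tumors (1.31, SE 0.28, adjusted p = 0.00057). *Cd59a*, an inhibitor of the membrane attack complex like clusterin, was 6.93 in eMCs with *SS18-SSX1* and 6.15 with the empty vector, 5.28 in SS40 NC and 8.10 in SS64 NC (-2.81, SE 0.080, adjusted p = 3.58e-10), and 7.61 in SS64 with *miR-214* and 8.10 in SS64 NC (-0.49, SE 0.056, adjusted p = 0.00021). Of 8 genes of terminal complement and its regulators tested in each comparison, 2 were higher and 3 lower in eMCs with *SS18-SSX1* (29.4% and 19.5% of all genes). In SS214 tumors 2 were higher and 0 lower (22.6% and 17.3%). In SS40 NC against SS64 NC 1 was higher and 1 lower (26.4% and 22.1%), and in SS64 with *miR-214* 0 were higher and 1 lower (4.90% and 8.02%).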
